A study of Homo sapiens with 2 samples.

Results

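Lysosomal genes were examined in hepatocellular carcinoma (HCC) cells treated with the Mac-2-binding protein glycan isomer (M2BPGi). The group holds 40 genes, chosen by symbol from a list of lysosomal hydrolases, lysosomal membrane proteins, subunits of the proton pump (V-ATPase) and the TFEB family of transcription factors. All 40 were found among the 16424 gene identifiers of the data set. Their transcription was measured by cap analysis of gene expression (CAGE), which sequences a short tag from the 5′ end of each capped RNA, so that the number of tags of a gene does not scale with the length of its transcript. The study has 1 library of non-treated PLC/PRF/5 cells and 1 library of PLC/PRF/5 cells given 3 µg/ml M2BPGi for 6 h, and PLC/PRF/5 is an established human hepatoma cell line that the study used as a model of poorly differentiated HCC. Values are in CPM, the tags of a gene scaled to a fixed library size (counts per 1e6 tags), and the totals read back from the CPM were 24040210 tags in non-treated and 24862943 tags in M2BPGi-treated cells. With 1 library per condition, no difference has a replicate check, no p-value can be given for the treatment and the findings describe these libraries of 1 cell line at 1 time point.

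The hepatoma label was checked against 9 hepatocyte and hepatoma markers, all of which had tags. The foetal liver protein AFP was at 695 CPM in non-treated cells and 566 CPM after M2BPGi treatment, and the epithelial keratin KRT18 was at 1249.8 and 1592 CPM. ALB, the gene of albumin, was at 8.82 and 7.04 CPM, TTR at 3.62 and 2.49 CPM and APOA1 at 4.37 and 4.63 CPM. These markers of mature hepatocytes were thus low in both libraries. The 9 markers had a summed level of 3546 CPM in non-treated cells and 3502 CPM after M2BPGi treatment. Most of this sum came from the keratins KRT18 and KRT8 (835 and 811 CPM), so it does not show how the liver markers changed. As deposited, 7 of the 9 markers were lower and 2 higher, and the part of such shifts in the lysosomal values was not tested. Macrophages are also rich in lysosomes. Of 8 macrophage markers, PTPRC, ITGAM and CSF1R were listed at 0 in both libraries and the other 5 were not among the identifiers. Of 6 stromal markers, COL3A1 (4.53 and 3.42 CPM) and COL1A1 (0.67 and 0.76 CPM) summed to 5.2 and 4.18 CPM, and the other 4 were not among the identifiers.

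Lysosomes degrade proteins, glycans and lipids with acid hydrolases, which are made at the endoplasmic reticulum (ER), sorted through the Golgi apparatus and activated at the low pH that the V-ATPase maintains. Many genes of the organelle share a promoter element, the CLEAR element, which is bound by the transcription factors TFEB, TFE3 and MITF. The kinase complex mTORC1, which is recruited to the lysosomal surface by the Rag GTPases and the Ragulator complex, phosphorylates TFEB and holds it in the cytosol, so that the lysosome is both a target and a platform of mTOR signaling.

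Most lysosomal genes had fewer tags in M2BPGi-treated than in non-treated cells, by a modest amount. The summed level of the 40 genes was 9682 CPM in non-treated cells and 7907 CPM after M2BPGi treatment, which is 0.968% and 0.791% of the respective library. The log2 ratio of each gene (M2BPGi-treated over non-treated) was taken with a pseudocount of 1 CPM on both values, and this makes the differences of low genes appear smaller. Genes with a mean of at least 1 CPM over both libraries were kept, which left 13724 genes and all 40 lysosomal genes. The median log2 ratio of the lysosomal genes was -0.29, or 18.0% lower, with quartiles of -0.37 and -0.12. Over all 13724 genes the median was -0.05, with quartiles of -0.26 and 0.14. The log2 ratio was below 0 in 36 of the 40 genes and above 0 in 4, beside 57% and 42.9% of all genes. When both libraries were rescaled so that the median over all genes was 0, 35 were below 0 and 5 above, since CD68 passed from -0.05 to 0.01. In bulk RNA, fewer cells that express a gene and less RNA per cell cannot be told apart.

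The differences were small beside common fold thresholds. Values at least 20% lower were seen in 16 of the 40 genes (18.4% of all genes) and values at least 25% higher in 0 (9.04% of all genes). After rescaling, MAN2B1, GRN, PPT1, LAMP2, CTSD and CTSC no longer reached 20% lower. Their log2 ratios were then from -0.31 to -0.28, and the threshold is 0.322 on the log2 scale. FUCA1 (-0.323) and ATP6AP2 (-0.325) only just passed it. The share of all genes at least 20% lower after rescaling was not counted, so 16 genes and 18.4% compare only as deposited. At least 1.5-fold lower were 2 genes, TPP1 and MCOLN1 (4.04% of all genes), and 0 were at least 1.5-fold higher (1.6% of all genes). After rescaling, 0 of the 40 genes were at least 1.5-fold lower (3.17% of all genes) and 0 at least 1.5-fold higher (2.22% of all genes). Counts this small are near the shares over all genes. To set the ratios against counting error, a 95% Clopper-Pearson interval was computed for the ratio of the tags of each gene without a pseudocount. It covers counting error alone and neither the spread between cultures nor that between library preparations. The interval lay below 0 on the log2 scale in 30 of the 40 genes, beside 31.5% of all genes, above 0 in 0 genes, beside 22.8% of all genes, and included 0 in 10. Intervals are narrower for genes with more tags, and the median of the mean CPM was 99.8 in the group and 20.9 over all genes. The shares over all genes, here and for the test of tags below, therefore come from genes with fewer tags. Tags were also tested between the libraries, gene by gene, with a two-sided exact binomial test (Benjamini-Hochberg adjusted over all 13724 genes, threshold 0.05), which says nothing of the spread between cultures and so is no test of M2BPGi treatment. This test called 30 of the 40 genes lower (28.7% of all genes) and 0 higher (20.9% of all genes). After rescaling it called 28 lower, without NEU1 and TFE3 (23.1% of all genes), and 1, ATP6V0D1, higher (26.3% of all genes), so that more of all genes were then called higher than lower.

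**Figure D1:**
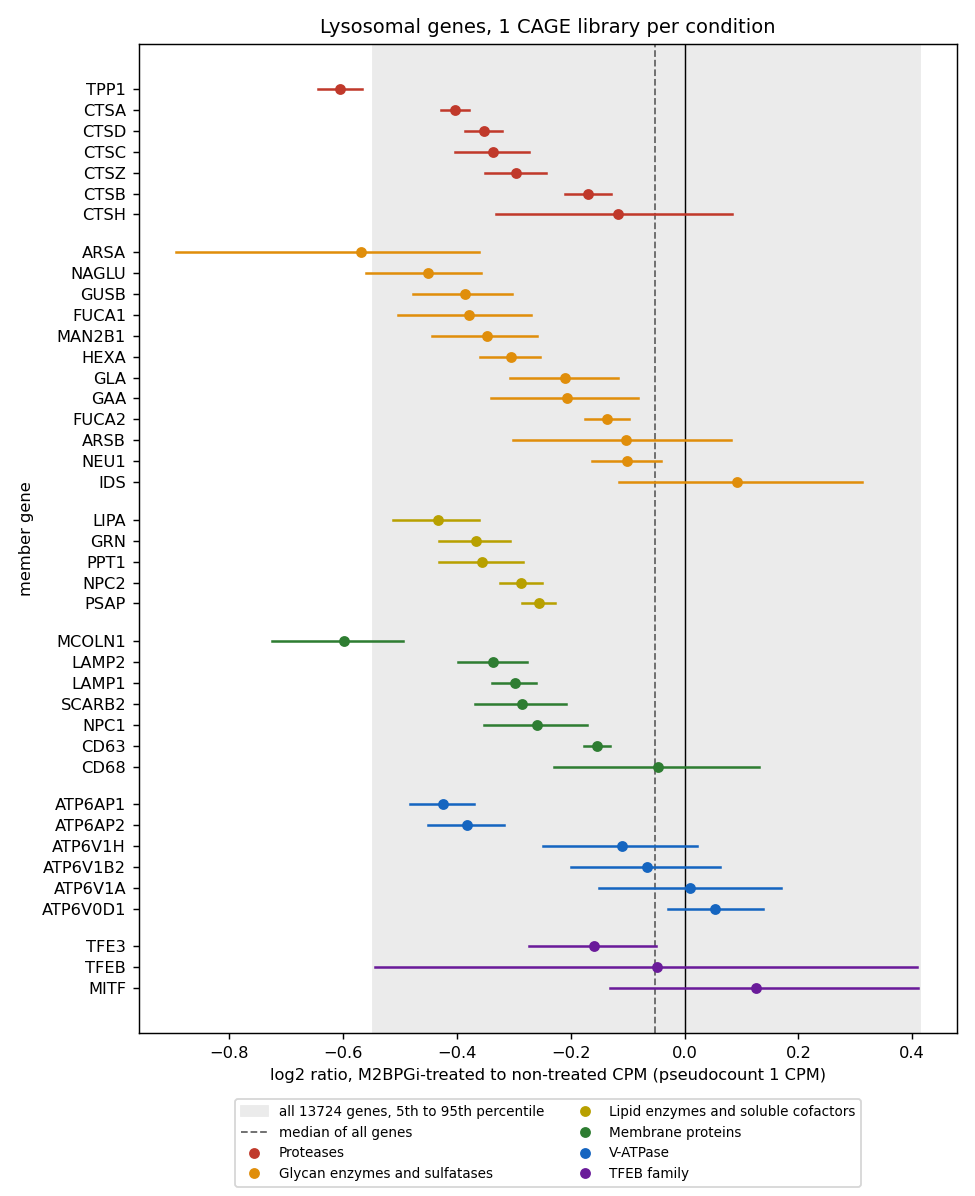
Log2 ratio of CPM, M2BPGi-treated over non-treated (x axis, pseudocount of 1 CPM) for each of the 40 lysosomal genes (y axis), grouped by role. Points are the ratios, bars the 95% counting intervals without a pseudocount, the grey band the 5th to 95th percentile of all 13724 genes and the dashed line their median; 36 points lie left of 0, and 35 do so after the libraries are rescaled, where CD68 passes to 0.01.

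The promoters of the group were searched for the letters of the CLEAR element as a description, without a test. RefSeq promoter windows (GRCh38.p14, 250 bases before to 50 bases after the annotated start) were found by symbol for 31 of the 40 genes, with 46 windows in all. The motif TCACGTGA, the core of the CLEAR element, reads the same on both strands and contains CACGTG, the E-box, so that each match of the former is also a match of the latter. TCACGTGA was present in 5 of the 31 genes (16.1%), in 9 of 62 other lysosome genes of a list described further on (14.5%), in 207 of 8799 tested genes with a window (2.35%) and in 344 of all 35116 windows (0.98%). CACGTG was present in 9 of the 31 genes (29%), in 21 of the 62 other lysosome genes (33.9%), in 12.7% of the tested genes and in 7.26% of all windows. The stretches around the motif are given for these 5 genes because they show how it is placed near the start, with TCACGTGA in capitals and the strand of the gene written 5′ to 3′. They lie at chr13:113297170-113297244 on the plus strand (LAMP1), chr16:67481170-67481257 on the minus strand (ATP6V0D1), chr17:80101464-80101580 on the plus strand (GAA), chr19:7522542-7522623 on the plus strand (MCOLN1) and chr20:45891269-45891334 on the plus strand (CTSA).
LAMP1: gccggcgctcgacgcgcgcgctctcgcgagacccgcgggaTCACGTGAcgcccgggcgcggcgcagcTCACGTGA
ATP6V0D1: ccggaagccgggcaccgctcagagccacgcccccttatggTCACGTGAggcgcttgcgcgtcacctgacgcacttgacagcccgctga
GAA: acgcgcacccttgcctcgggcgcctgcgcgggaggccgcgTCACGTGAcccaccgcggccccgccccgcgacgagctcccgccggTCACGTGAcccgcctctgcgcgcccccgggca
MCOLN1: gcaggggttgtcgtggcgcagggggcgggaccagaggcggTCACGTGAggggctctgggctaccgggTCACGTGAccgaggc
CTSA: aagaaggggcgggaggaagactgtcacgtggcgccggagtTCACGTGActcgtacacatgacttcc
LAMP1, GAA and MCOLN1 each carried 2 copies of the motif. The first base of the copies lay 29 and 2 bases before the annotated start in LAMP1, 77 and 32 bases before it in GAA, and 42 and 15 bases before it in MCOLN1. The single copy began 60 bases before the start in ATP6V0D1 and 26 bases before it in CTSA. These 5 genes spanned almost the whole range of the group, from a log2 ratio of -0.60 in MCOLN1 to 0.05 in ATP6V0D1. Their median was -0.30, with 4 of 5 lower, and that of the 26 genes with a window but no match was -0.29, with 24 of 26 lower. Over all tested genes, the 207 with TCACGTGA had a median of -0.11, with 143 lower, and the 8592 without it a median of -0.05, with 4840 lower. For CACGTG, the 9 genes with a match had a median of -0.21, with 8 lower, and the 22 without it a median of -0.29, with 20 lower. A match of letters is not evidence of binding.

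The lysosomal proteases were lower throughout. All 7 had a log2 ratio below 0, with a median of -0.34, and their summed level was 3406 CPM in non-treated cells and 2619.8 CPM after M2BPGi treatment. TPP1, which removes tripeptides from the ends of proteins and is mutated in a neuronal ceroid lipofuscinosis, was at 550 CPM in non-treated cells and 361 CPM after M2BPGi treatment. This was 34.3% lower without a pseudocount (log2 ratio -0.60, interval -0.64 to -0.57), and 3.61% of all genes had a lower log2 ratio. The order of TPP1, MCOLN1 and ARSA, the 3 lowest of the 40 genes, depended on the pseudocount: TPP1 was lowest with 1 CPM and ARSA with 0.1 CPM. CTSA, a carboxypeptidase that also protects the enzymes NEU1 and beta-galactosidase from degradation, was the most abundant protease with 1282 CPM in non-treated cells and 969 CPM after M2BPGi treatment (log2 ratio -0.40, interval -0.43 to -0.38). The aspartic protease CTSD, the dipeptidyl peptidase CTSC and the carboxypeptidase CTSZ had log2 ratios from -0.35 to -0.30. CTSB and CTSH were nearest to 0, at -0.17 and -0.12, and the interval of CTSH included 0.

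Enzymes that degrade glycans, glycolipids and glycogen, including the sulfatases, varied more. Of 12 genes, 11 were lower, with a median of -0.26. ARSA, the sulfatase that degrades sulfatide, was at 12.2 CPM in non-treated cells and 7.92 CPM after M2BPGi treatment. Its log2 ratio was -0.57 with a wide interval of -0.89 to -0.36, since it rested on 294 and 197 tags, and it fell short of the 1.5-fold threshold (0.58 on the log2 scale) through the pseudocount, the ratio without it being 1.54-fold. NAGLU, GUSB and FUCA1, which degrade heparan sulfate, glucuronides and fucosylated glycans, had log2 ratios of -0.45, -0.39 and -0.38. FUCA2, a fucosidase, was the most abundant gene of these enzymes with 467 CPM in non-treated cells and 424 CPM after M2BPGi treatment, a log2 ratio of -0.14 that was outside counting error (interval -0.18 to -0.10). The only one with a higher value was IDS, the iduronate sulfatase, at 14.4 CPM in non-treated cells and 15.4 CPM after M2BPGi treatment (log2 ratio 0.09, interval -0.12 to 0.31). Its interval included 0, as did that of the sulfatase ARSB, at -0.10. For 6 of the 40 genes, a gene at another place has nearly the same sequence over part of the transcript start, so that their tags are uncertain. These are IDS among the higher genes and CTSA, CTSB, GUSB, NPC1 and ATP6AP2 among the lower ones, and such copies are listed in the data for each of the latter 5 but not for IDS.

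The lipid and thioester enzymes and soluble cofactors formed the group of members with the lowest median, at -0.36, and all 5 were lower with intervals below 0. PSAP, the precursor of the saposins that assist in the breakdown of sphingolipids, was the most abundant with 854 CPM in non-treated cells and 715 CPM after M2BPGi treatment (log2 ratio -0.26, interval -0.29 to -0.23). LIPA, which hydrolyses cholesteryl esters, had a log2 ratio of -0.43, followed by the progranulin gene GRN at -0.37, the palmitoyl thioesterase PPT1 at -0.36 and the cholesterol-binding protein NPC2 at -0.29. The enzymes among the 40 genes (proteases, glycan enzymes, LIPA and PPT1) numbered 21, of which 20 were lower, with a median of -0.34.

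The membrane proteins were lower in 7 of 7 genes as deposited and in 6 after rescaling, the exception being CD68. Their median was -0.29. MCOLN1, a calcium channel of the lysosomal membrane, was at 63.4 CPM in non-treated cells and 41.55 CPM after M2BPGi treatment, 34.5% lower (log2 ratio -0.60, interval -0.72 to -0.49), which overlaps the interval of TPP1. LAMP1, a major glycoprotein of the lysosomal membrane, was at 497 and 404 CPM, 18.7% lower (log2 ratio -0.30, interval -0.34 to -0.26). LAMP2, the receptor SCARB2, which carries glucocerebrosidase to the lysosome, and the cholesterol transporter NPC1 had log2 ratios of -0.34, -0.29 and -0.26. CD63, a tetraspanin of late endosomes and exosomes, was the most abundant of all 40 genes with 1340 CPM in non-treated cells and 1204 CPM after M2BPGi treatment (log2 ratio -0.15, interval -0.18 to -0.13). CD68 was at 21.2 and 20.47 CPM. Overlap with another listed gene on the same strand makes the values of 7 of the 40 genes uncertain, namely CD68, MCOLN1, MAN2B1, NAGLU, CTSD, CTSB and HEXA. The overlapping genes were at 322 and 426 CPM for CD68, at 176 and 194 CPM for MAN2B1 and, for MCOLN1, PNPLA6 was at 55.2 and 42.8 CPM.

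**Figure D2:**
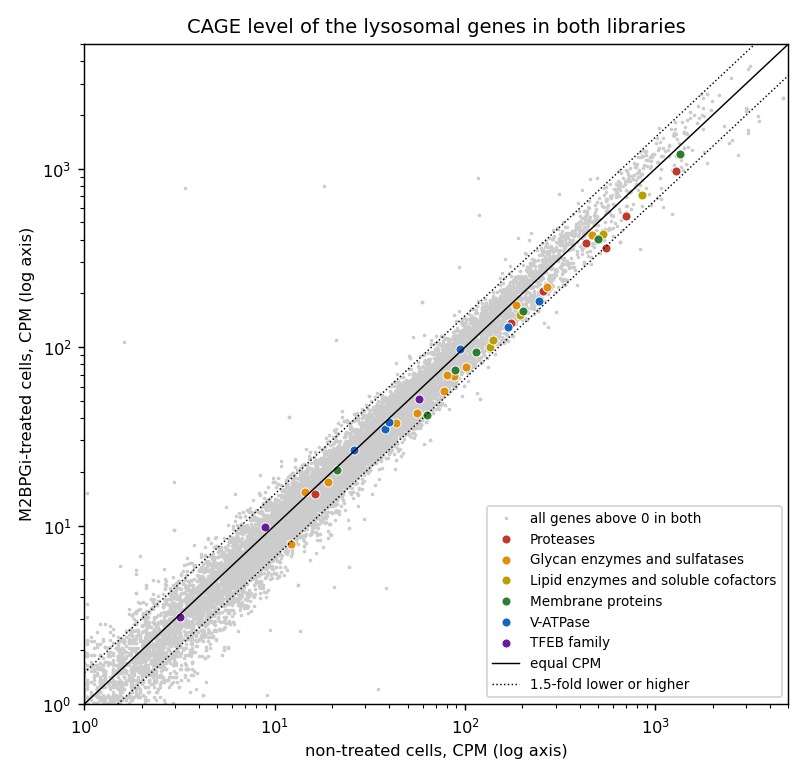
CPM in non-treated cells (x axis, log scale) against CPM in M2BPGi-treated cells (y axis, log scale), 1 library each. Grey points are all genes above 0 in both libraries and coloured points the 40 lysosomal genes by role; the solid line marks equal CPM and the dotted lines a 1.5-fold difference without a pseudocount, which TPP1, MCOLN1 and ARSA pass.

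The V-ATPase genes were divided. The accessory subunits, which are membrane proteins that help to assemble the pump, were lower. ATP6AP1 was at 245 CPM in non-treated cells and 183 CPM after M2BPGi treatment (log2 ratio -0.42, interval -0.48 to -0.37), and ATP6AP2 was at 169 and 129 CPM (log2 ratio -0.38, interval -0.45 to -0.32). The 4 genes of the core pump differed little and, as deposited, not beyond counting error. Of the cytosolic V1 sector, which hydrolyses ATP, the catalytic subunit ATP6V1A was at 26.25 and 26.4 CPM (log2 ratio 0.01, interval -0.15 to 0.17). ATP6V1B2 was at 39.97 and 38.1 CPM (log2 ratio -0.07, interval -0.20 to 0.06). The regulatory subunit ATP6V1H was at 37.8 and 34.95 CPM (log2 ratio -0.11, interval -0.25 to 0.02). ATP6V0D1, which joins the proton channel to the V1 sector, was at 94.1 and 97.7 CPM (log2 ratio 0.05, interval -0.03 to 0.14). The median of the 6 genes was -0.09, with 4 lower and 2 higher, and it was -0.03 after rescaling.

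Transcripts of the TFEB family showed no common direction. TFE3, the most abundant of them, was at 57.4 CPM in non-treated cells and 51.3 CPM after M2BPGi treatment (log2 ratio -0.16, interval -0.27 to -0.05). After rescaling its log2 ratio was -0.10, and the binomial test of tags no longer called it lower. TFEB was at 3.2 and 3.06 CPM, which corresponds to 77 and 76 tags, so that its interval of -0.54 to 0.41 leaves room for smaller differences in either direction at this depth. MITF was at 8.94 and 9.85 CPM (log2 ratio 0.13, interval -0.13 to 0.41). CAGE measures RNA, and the phosphorylation and location of these factors were not measured by it.

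The lower values were examined against abundance, because the ratio varied with it in these libraries. Over all genes the median log2 ratio was -0.11 at 1 to 10 CPM, -0.08 at 10 to 30 CPM, -0.02 at 30 to 100 CPM, 0.07 at 100 to 300 CPM and 0.16 at 300 CPM or more. The lysosomal genes did not follow this order. At 100 CPM or more, 20 of 20 were lower and had ratios below the median of the 1924 genes in that range, which was 0.10, while their own median was -0.32. The quartiles of the 1924 genes were -0.15 and 0.25, and the share of them that were lower was not counted. Whether other groups of abundant genes depart from the order in the same way was not tested. At 30 to 100 CPM, 11 of 12 were lower, with a median of -0.23. Of the 6 genes at 10 to 30 CPM, 4 were lower, with a median of -0.07 beside -0.08 over all genes of that range, so the medians were close there. The 2 genes at 1 to 10 CPM, TFEB and MITF, both lay above the median of their range, with a median of 0.04 and 1 of them lower. The longest annotated transcript had a median of 3402.5 bases in the group and 3262 bases over 13271 genes with a length. Among the 5031 genes between the quartiles of the group's lengths, 2319.75 to 4624.25 bases, the median was -0.05. The ratio over all genes also varied with length, with a median of 0.06 at 1000 to 2000 bases and -0.12 at 5000 bases or more. In these 2 classes the lysosomal genes had medians of -0.21 (5 genes) and -0.27 (8 genes). The part of length in the lysosomal values was not tested.

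**Figure D3:**
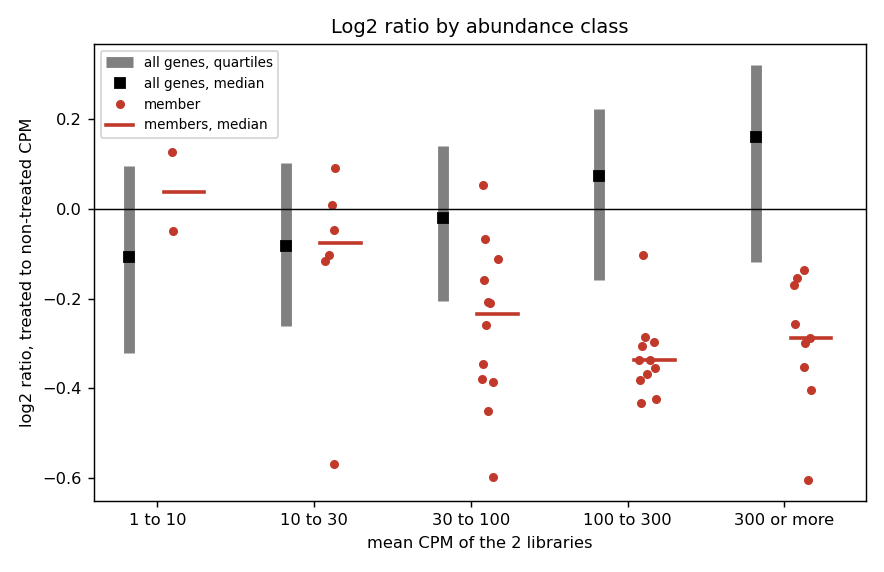
Log2 ratio of CPM, M2BPGi-treated over non-treated (y axis, pseudocount of 1 CPM) by mean CPM of both libraries (x axis, 5 classes). Black squares and grey bars are the median and quartiles of all genes, red points the lysosomal genes and red lines their medians; the median of all genes goes from -0.11 to 0.16 with abundance, and the 20 lysosomal genes at 100 CPM or more lie between -0.60 and -0.10.

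Other genes of the lysosome, from a list of 91 names that holds none of the 40, had a similar median but a wider range. Of these, 87 identifiers passed the filter on low values, CLN3 and FLCN each with a pair of identifiers of nearly the same values, and their median log2 ratio was -0.27, with 65 lower and 22 higher. The upper quartile was -0.01, compared with -0.12 for the 40 genes, and the counting interval lay below 0 in 56 identifiers (31.5% of all genes) and above 0 in 11 (22.8% of all genes). The median of their mean CPM was 46.1, so these shares too come from genes with fewer tags. Further hydrolases, a class that here includes the acetyltransferase HGSNAT, were lower in 21 of 21 (median -0.37). Membrane proteins and transporters were lower in 18 of 19 (median -0.34) and genes of hydrolase sorting in 9 of 9 (median -0.27). The lowest ratios at a mean of at least 10 CPM were those of IDUA, the iduronidase (18.9 and 11.3 CPM, log2 ratio -0.70), TCIRG1, a membrane subunit of the V-ATPase (41.3 and 26.55 CPM, log2 ratio -0.62), and the protease CTSF (89.4 and 59.5 CPM, log2 ratio -0.58). The other V-ATPase subunits had a median of -0.05, with 7 of 13 lower, and genes of fusion and positioning a median of -0.06, with 5 of 9 lower. Genes of the Ragulator, the Rag GTPases and the regulators of TFEB had a median of 0.04, with 5 of 16 lower. The highest ratios of the list were in this last class, namely the Rag GTPase RRAGD (31.7 and 41.95 CPM, log2 ratio 0.40) and the Ragulator subunits LAMTOR5 (111.52 and 139 CPM, log2 ratio 0.32) and LAMTOR2 (82.1 and 99.1 CPM, log2 ratio 0.27).

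After the values were seen, the genes were also divided by where their protein is made, a division that therefore only describes the data. Of the 40 genes, 33 encode proteins that are made at the ER, either soluble or in the membrane. Their median log2 ratio was -0.31, with 32 of 33 lower as deposited and CD68 passing to 0.01 after rescaling. The 7 genes whose proteins are made in the cytosol, namely the V1 subunits, ATP6V0D1 and the TFEB family, had a median of -0.05, with 4 lower and 3 higher. After rescaling, the median was -0.25 for the 33 genes and -0.005 for these 7. In the list of other lysosome genes, the 53 identifiers of the former kind had a median of -0.34, with 49 lower, and the 34 of the latter kind a median of 0.01, with 16 lower. The former kind includes enzymes and receptors of hydrolase sorting that act in the Golgi apparatus. Genes of ER-made proteins outside the lysosome were not set beside these as a class, so the division says nothing particular to lysosomal genes.

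**Figure D4:**
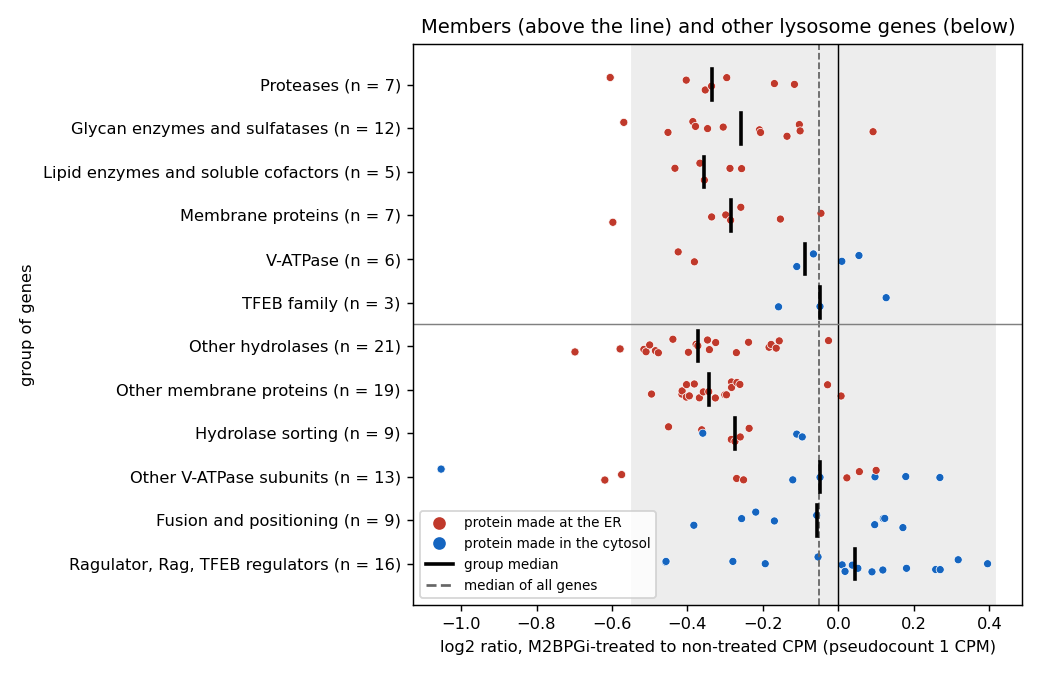
Log2 ratio of CPM, M2BPGi-treated over non-treated (x axis, pseudocount of 1 CPM) for the 40 lysosomal genes by role (above the horizontal line) and for other lysosome genes (below it), with the number of identifiers in brackets. Points are genes coloured by where the protein is made, short black lines group medians, the dashed line the median of all genes and the grey band their 5th to 95th percentile; genes of ER-made proteins among the 40 have a median of -0.31 and those of cytosolic proteins of -0.05.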

How the data were processed

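CAGE libraries were made from total RNA. Tags from ribosomal RNA or with undetermined bases had been removed before mapping with BWA, and the paper names DNAFORM as having done the mapping. The deposited values are CPM per gene with 2 decimals. The submitters' processing notes name BWA, HISAT2 and hg19, whereas the methods of the paper name a mouse genome; the gene identifiers are those of human genes. The assignment of tags to genes is not given in the sources used here, and overlapping identifiers can hold the same tags. From the CPM, log2 ratios with a pseudocount of 1 CPM were computed for 13724 genes with a mean of at least 1 CPM. Within 0.0055 CPM (the rounding of 0.005 CPM and a small margin), 100% of nonzero values could be written as a whole number of tags, which gave the totals and the counting intervals. By a stricter measure, 87.6% of low values in non-treated and 94.1% in M2BPGi-treated cells lay within 0.1 of the CPM of a tag, of which the rounding alone is 0.12, so the tags rest on the former tolerance. The same tags were used for an exact binomial test between the libraries, which covers counting error only. TMM scaling was not run, because the stricter measure is the one set for count-based tools on CPM and it was not met. The interval computation and the binomial test were tested on simulated data. Near-identical copies were searched with BLAST+ 2.17.0 in GENCODE 29 (at least 95% identity over at least 100 of the first 500 bases), and promoter motifs in RefSeq windows of 300 bases. Python 3.11.15 with numpy 2.4.6, pandas 2.3.3, scipy 1.17.1 and matplotlib 3.10.9 was used. The members and lists were chosen with earlier results of these data known. CPM in both libraries is given for the 3 highest and 3 lowest members with a mean of at least 10 CPM, the most abundant member of each role, LAMP1, and every V-ATPase and TFEB family member, and for the 3 highest and 3 lowest other lysosome genes with a mean of at least 10 CPM. Values of other genes, such as CD68, were added after they were seen. Alternatives were other pseudocounts, filters, fold thresholds, a rescaling, 1 identifier per symbol and, chosen after seeing the data, the members without a near-identical copy and the division by where the protein is made.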

Additional observations from a re-analysis of the deposited data

How the results depend on the processing

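The median log2 ratio of the 40 lysosomal genes ranged from -0.29 to -0.23 over the alternatives, the latter after both libraries were rescaled to a median of 0 over all genes, and 35 or 36 of 40 genes were lower (35 of 38 with a mean of at least 10 CPM). The number at least 1.5-fold lower, 2 in the report, was 3 with a pseudocount of 0.1 CPM, 1 with a pseudocount of 5 CPM and 0 after rescaling. With a threshold of 20% lower it was 16 as deposited and fewer after rescaling, and with a threshold of 2 it was 0. Over all genes, 219 were at least 1.5-fold higher and 555 lower (28.3% higher), beside 304 and 435 (41.1%) after rescaling, so the balance of the libraries depends on the scaling. Rescaling also moved 12 of 40 single gene values beyond their counting interval and changed the sign of 1, CD68. Without the 6 members that have a near-identical copy, an alternative chosen after seeing the data, 31 of 34 were lower with a median of -0.29. No paired analysis was possible because there is 1 library of each condition, which also means that none could be left out. The binomial test of tags called 30 of the 40 genes lower and 0 higher, beside 28 and 1 after rescaling. Over all genes it called 2869 higher and 3942 lower (42.1% higher), beside 3604 and 3174 (53.2%). The planned TMM scaling was left out. TFEB and MITF, at 76 to 245 tags, are limited by depth.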

Other observations

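Identifiers that overlap on the same strand can hold the same tags. NAGLU and an overlapping identifier had the same values, 77.87 CPM in non-treated cells and 56.67 CPM after M2BPGi treatment. CTSD was at 697 and 546 CPM beside 688 and 541 CPM for an overlapping identifier, and HEXA at 269.92 and 218 CPM beside 268 and 217 CPM. Summed levels over all identifiers can therefore count a tag more than once.

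The V-ATPase subunits outside the 40 genes, chosen here after their values were seen, also differed among themselves. The large membrane subunits ATP6V0A1 (122 and 81.6 CPM, log2 ratio -0.57), TCIRG1 (log2 ratio -0.62) and ATP6V0A2 (log2 ratio -0.25) were lower, whereas the cytosolic subunits ATP6V1F (201.5 and 243 CPM, log2 ratio 0.27) and ATP6V1G1 (160.4 and 182 CPM, log2 ratio 0.18) were higher. Other subunits went the other way, with the membrane subunits ATP6V0E1, ATP6V0E2 and ATP6V0B at log2 ratios of 0.10, 0.06 and 0.02 and the cytosolic subunits ATP6V1D and ATP6V1C1 at -0.12 and -0.05. Together with the members, 4 of 8 V0 and 5 of 9 V1 subunits were lower as deposited, so neither sector had a common direction. ATP6V1G2, also cytosolic, had the lowest ratio of the other lysosome genes, at 5.41 and 2.09 CPM (log2 ratio -1.05). All 5 Ragulator subunits were higher (42.9% of all genes), with a median log2 ratio of 0.26. The counting interval lay above 0 in 4 of them and included 0 in LAMTOR3. Their summed level was 508 CPM in non-treated cells and 591 CPM after M2BPGi treatment. The median of their mean CPM was 117, beside 20.9 over all genes, so the 42.9% comes from genes with fewer tags. At 100 to 300 CPM the median log2 ratio over all genes was 0.07, beside 0.12, 0.26 and 0.32 for LAMTOR1, LAMTOR4 and LAMTOR5 in that range.

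Of the 9 hepatocyte markers, 7 were lower as deposited. These were SERPINA1 (671 and 455 CPM, log2 ratio -0.56), APOB (15.6 and 11.1 CPM, log2 ratio -0.46), TTR (log2 ratio -0.40), AFP (log2 ratio -0.30), ALB (log2 ratio -0.29), GPC3 (log2 ratio -0.26) and KRT8 (log2 ratio -0.04). KRT18 (log2 ratio 0.35) and APOA1 (log2 ratio 0.07) were higher. Ratios as near to 0 as those of KRT8 and ATP6V1C1 are within the shift of -0.05 in the median of all genes. The relation of the marker values to those of the lysosomal genes was not tested.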
